A study of Mus musculus with 7 samples.

Results

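The genes described are the translation initiation factors of the mouse, taken as every gene in the expression files whose symbol begins with Eif1 to Eif6. Of 64 such symbols, the 4 eIF2 kinases, 1 Y-linked gene and 9 pseudogenes were left out, so that 50 of 32212 listed genes remained. Of these, 48 passed the expression filter (at least 0.5 FPKM in at least 3 libraries) and entered the test. Their levels were measured by poly(A) RNA sequencing of whole subcutaneous tumours of the Lewis lung carcinoma (LLC) line, a mouse lung cancer that can be passed from mouse to mouse. The host mice were wild-type C57BL/6J mice, 6 weeks old when LLC cells were injected into the right axilla, and were assigned to groups after 3 days. The control group is 4 libraries from tumours of untreated model mice. The ZQD group is 3 libraries from tumours of mice that received Ze-qi decoction (ZQD), a herbal medicine, at a high dose of 42.67 g/kg. All 7 libraries come from the same line and host strain, so every group carries the transplanted tumour. The labels give both day 21 and day 22 as the time of collection. Whether each library stands for its own mouse is not said, so the tests weigh only the spread between libraries, which may be technical.

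Initiation factors bring the small ribosomal subunit, the initiator methionyl tRNA and the messenger RNA together and release each other once the start codon is found. eIF2 carries the initiator tRNA and is recharged with GTP by eIF2B, eIF3 is the large scaffold on the small subunit, and eIF4E, eIF4G and eIF4A bind the cap, bridge to the ribosome and unwind the leader. The eIF4E-binding proteins hold eIF4E back when mTORC1 signalling is low, and several of these factors are studied in tumours because growing cells depend on protein synthesis. The comparison asks whether transcripts of these factors differ between tumours of ZQD-treated and untreated mice.

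Values are FPKM, that is, reads per length of the gene and per total of the library, so each is a share of its library. Reads per library numbered 32065288 to 49914394 among controls and 34765330 to 38673663 among ZQD libraries. Only control 1 and control 2 have deposited counts, and reads of the other libraries, here and below, were rebuilt from FPKM. Mitochondrially encoded genes took 5.18% to 7.96% of reads in controls and 8.78% to 11.1% in ZQD, without overlap, and their part in the differences given here was not tested beyond a rescaling without them. The 5 epithelial markers summed to 9.07 to 33.2 FPKM in the controls and 7.21 to 21.04 in ZQD, nearly all of it Krt19 (6.26 to 31.6 over all libraries), while Epcam, Krt8 and Krt18 stayed at or below 0.702 and Cdh1 at or below 1.26. The 4 lung epithelial markers summed to at most 0.187. Of the mesenchymal markers, Vim was at 460 to 704 in all libraries, and Cdh2 at 0.139 to 0.182 in controls and 0.222 to 0.308 in ZQD, without overlap. The libraries also held RNA of other cells. Summed macrophage markers were 257 to 333 FPKM in the controls and 267 to 390 in ZQD, most of it Cd68, and overlapped. Mrc1, another of these 4 markers, did not overlap, at 4.55 to 11.2 in controls and 13.7 to 47.6 in ZQD. Summed neutrophil markers were 7.10 to 21.7 and 11.7 to 58.9. Summed skin markers were 0.321 to 0.379 in controls and 0.488, 6.39 and 0.618 in ZQD, without overlap, though of the single genes only Krt10 separated the groups. Other sums overlapped but were high in single libraries. Adipocyte markers were 2.13 to 5.28 in controls and 39.0, 12.6 and 2.37 in ZQD. Fibroblast markers were 22.2 to 84.6 and 24.3 to 158, highest in ZQD 2. Blood markers were 54.5 to 229 and 47.0 to 336, also highest in ZQD 2. Muscle markers were 2.07 to 25.5, highest in control 1, and 2.70 to 9.01. The part of these cells in the results was not tested. In bulk tissue, fewer cells of a type and less RNA per cell cannot be told apart.

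The promoters of the factors are shown first, because messages of the translation machinery often begin with a run of pyrimidines through which mTORC1 and LARP1 act on their translation, and because the E-box CACGTG, a site recognised by MYC and related factors, is a known element of growth genes. RefSeq windows (build GRCm38.p6, 250 bases before to 50 after a gene's start) were found for 39 of the 50 members. A run of at least 8 C or T letters with at least 1 C on the gene's strand, covering the start (base 0) or beginning within 5 bases after it, was present in 6 of 39 members (15.4%) and in 7.36% of 27025 RefSeq genes. The members were Eif3f, Eif2s3x, Eif2b5, Eif3l and Eif2c5, whose runs cover the start, and Eif2b2, whose run begins at base 5. Of these, Eif2c5 is a non-coding RNA that entered by its symbol, so it is no message of the translation machinery. The run of Eif2b5 (21 letters) begins at base -17 and that of Eif3l (10 letters) at base -7. Most of each lies before the listed start, so as listed these messages do not begin with a run of 8. CACGTG, which reads the same on both strands, was in the window of 10 members (25.6%) and of 8.09% of all genes. A match describes these letters only. In the 4 windows that follow, from 25 bases before to 14 after the start, capitals mark the pyrimidine run.
Eif3f (chr7:108934390-108934429, plus strand): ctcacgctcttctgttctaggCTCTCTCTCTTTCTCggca
Eif2s3x (chrX:94212637-94212676, minus strand): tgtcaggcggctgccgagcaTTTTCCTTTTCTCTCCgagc
Eif2b5 (chr16:20498792-20498831, plus strand): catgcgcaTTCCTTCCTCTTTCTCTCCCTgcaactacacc
Eif3l (chr15:79075198-79075237, plus strand): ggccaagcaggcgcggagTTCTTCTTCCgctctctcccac

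The E-box windows shown are those of Eif1b, Eif3f and Eif5a, whose ZQD libraries all lay below the controls, and of Eif4g1, the main eIF4G scaffold. Capitals mark CACGTG, which begins 24, 68, 185 and 54 bases before a listed start, in that order. These windows were picked with the values known, so they do not stand for all carriers. The carriers not shown are Eif3a, Eif3k, Eif4a1, Eif4e, Eif4h and Eif5a2, with log2 fold changes from -0.23 (Eif4h) to 0.20 (Eif3a).
Eif1b (chr9:120492565-120492604, plus strand): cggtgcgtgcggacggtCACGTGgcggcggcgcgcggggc
Eif3f (chr7:108934330-108934369, plus strand): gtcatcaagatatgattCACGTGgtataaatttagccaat
Eif5a (chr11:69921438-69921477, minus strand): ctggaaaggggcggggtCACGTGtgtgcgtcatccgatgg
Eif4g1 (chr16:20672656-20672695, plus strand): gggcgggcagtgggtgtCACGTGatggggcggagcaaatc

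Initiation factor transcripts were abundant in these tumours. The median member was at 33.6 FPKM over the 7 libraries, against 5.34 for all 14838 genes tested, and 20 members were among the 1000 most abundant genes. By mean level, 7 members were above 100 FPKM, 34 between 10 and 100, and 9 below 10. In rebuilt reads, 41 members had over 1000 in every library and the fewest for a tested member were 82. The 2 members not tested were Eif4ebp3, an eIF4E-binding protein at 0.171 to 0.700 FPKM (5 to 26 reads), and Eif2c5, a non-coding RNA with an Argonaute-type symbol, listed at 0 in 5 libraries and at no more than 0.163 in the other two.

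In ZQD tumours most factors were close to their control level, and no factor passed the adjusted threshold in limma. Eif3f, Eif6, Eif5a and Eif1b were lower and Eif4g3, Eif1ax and Eif2b1 higher in every ZQD library than in every control library. Of 48 members, 16 had a log2 fold change above 0 and 32 below, a split that became 25 and 23 on median-of-ratios and TMM scaling, 26 and 22 with mitochondrially encoded genes left out of the scaling, and 6 and 42 when each library was rescaled to the same sum (TPM scale). The median was -0.041, against -0.043 over all genes tested, on the log2(FPKM + 0.5) scale, on which differences of scarce transcripts come out too small. The members' median moved more than that of all genes when a library was left out, from -0.0062 without control 4 (all genes -0.046) to -0.073 without control 1 (all genes -0.038). After Benjamini-Hochberg adjustment, limma called 0 members and 0 of 14838 genes (0.0%) at 0.05, and the lowest adjusted p of a member was 0.186. At an unadjusted p under 0.05 limma had 4 members lower and 2 higher, while 10.3% of all genes were lower and 5.21% higher. Groups did not overlap for 4 members downward and 3 upward, and for 9.84% and 5.35% of all genes. These shares of members are near those of all genes. DESeq2 on the rebuilt reads called 1 member, Eif4g3, where it called 4.13% of 12525 genes in either direction and 2.3% higher, and edgeR called 0 of 14832 genes (0.0%).

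The median half-width of the 95% interval was 0.234 for members and 0.307 for all genes tested. At a mean of at least 5 FPKM it was 0.233 for members and 0.254 for all genes. How many intervals lie near 0 depends on this width and on the size of the fold change. For 41 of 48 members (85.4%) the 95% interval of the log2 fold change lay within 0.5 of 0, against 53.9% of all genes. Among genes with a mean of at least 5 FPKM the shares were 88.9% of 45 members and 68.5% of 7673 genes. The median size of the fold change, without its sign, was 0.090 for members and 0.149 for all genes, and 0.091 and 0.136 at a mean of at least 5 FPKM. The summed FPKM of all 50 members was 2664.6 ± 191.6 in controls (SD, n = 4) and 2515.9 ± 78.7 in ZQD (SD, n = 3), or 94.4% of the control mean, and the groups overlapped. Control 4 held the highest value of 23 of the 48 tested members and ZQD 1 the lowest of 13.

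**Figure D1:**
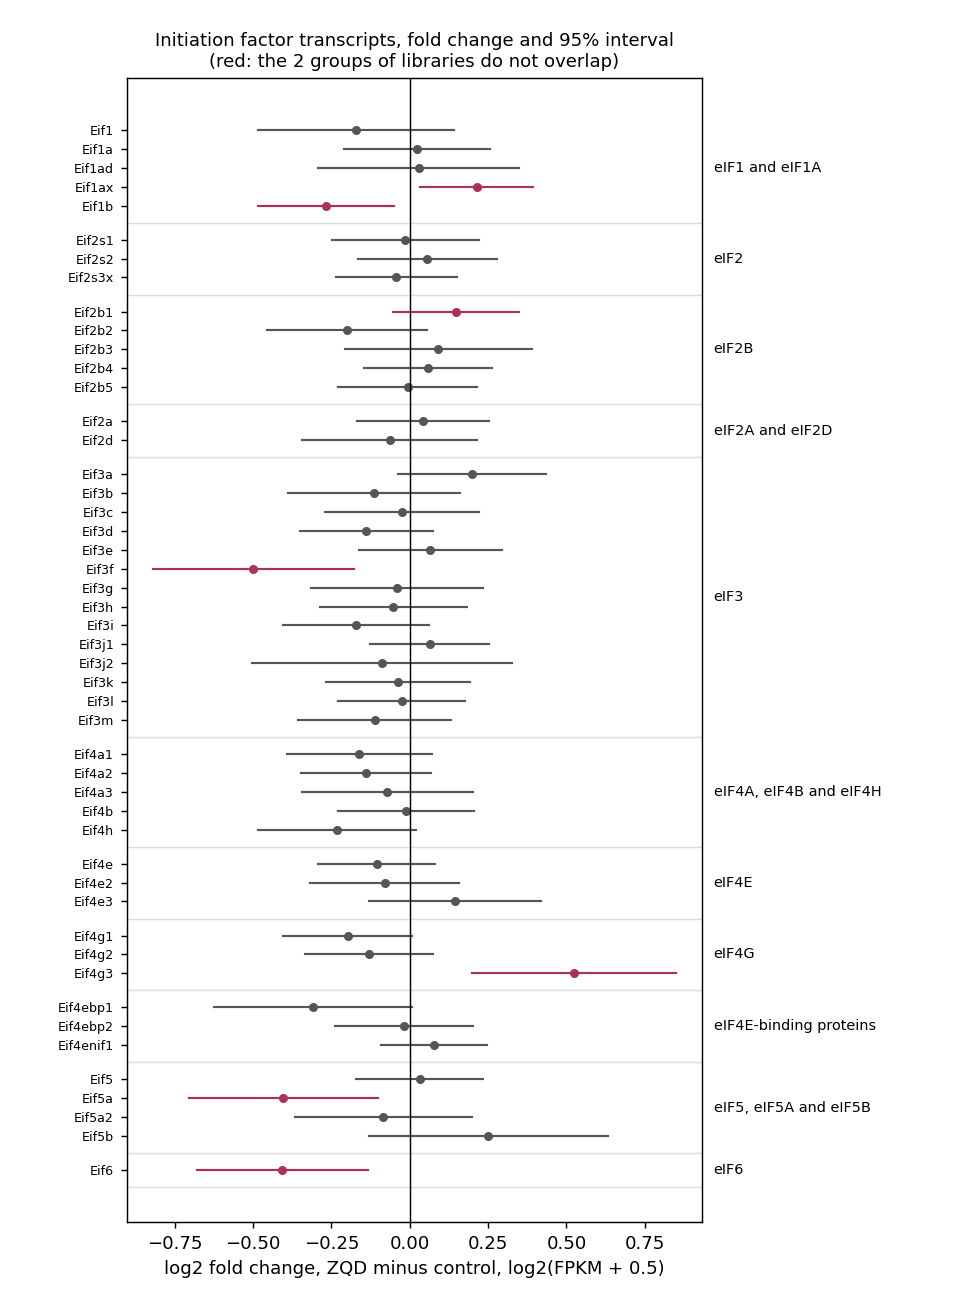
Log2 fold change of each of the 48 tested initiation factors (ZQD minus control, from log2(FPKM + 0.5)) with its 95% interval from limma, grouped by factor complex. Red marks the 7 members whose ZQD and control libraries do not overlap; the values run from -0.50 for Eif3f to 0.52 for Eif4g3.

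Counts of members past the unadjusted threshold moved with the scaling too. On the TPM scale, 14 members were lower and 1 higher at an unadjusted p under 0.05, where 19.3% and 2.54% of all genes were, and the median of all genes was -0.15 in place of -0.043. Relative to that shift the members' median stayed close to all genes, at -0.14. Median-of-ratios scaling gave 4 lower and 3 higher members (7.29% and 7.39% of all genes), TMM also 4 and 3 (7.37% of all genes each way), and the scaling that leaves out mitochondrially encoded genes 4 and 4 (7.04% and 7.77%). The summed FPKM of a library was 292310 to 303569 in controls and 311469 to 326728 in ZQD. The groups of Eif3f, Eif6, Eif5a, Eif1b and Eif4g3 stayed apart in the same direction on each of these scalings, while those of Eif1ax and Eif2b1 overlapped on the TPM scale. Without control 1, and without ZQD 2, the count of higher members was 1. With 1 library left out, Eif1ax missed the unadjusted threshold without control 1, control 2, ZQD 2 or ZQD 3. Eif1b missed it without ZQD 1 or ZQD 2, and Eif5a without ZQD 1. Eif1ax also missed it on the TPM scale and with replicate number as a block, and Eif1b with that block and in edgeR and DESeq2. Of 20 alternatives, Eif1ax passed it in 14, Eif1b in 15 and Eif5a in 19.

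Start codon selection rests on eIF1 and eIF1A, which keep the scanning ribosome open until an AUG is met. Eif1, the main eIF1 gene, was at 58.9, 77.4, 60.3 and 79.4 FPKM in the controls and 56.1, 57.6 and 69.0 in ZQD (log2 fold change -0.17). These groups overlapped. Its paralogue Eif1b (ENSMUSG00000006941) was at 23.2, 22.8, 24.3 and 27.4 FPKM in the controls and 19.3, 19.3 and 22.1 in ZQD. All ZQD libraries lay below all controls, and the fitted log2 difference was -0.27 (SE 0.095, limma adjusted p = 0.252). Eif1ax (ENSMUSG00000067194), the X-linked eIF1A gene, went the other way, at 11.9, 11.5, 13.03 and 12.7 in controls and 14.1, 14.7 and 14.2 in ZQD. The ZQD libraries all lay above the controls (log2 fold change 0.21, SE 0.079, limma adjusted p = 0.263). Eif1a, the autosomal copy, overlapped between groups at 33.2 to 38.1 and 30.6 to 38.4 FPKM. The ratio of Eif1 to Eif1b was 2.83 ± 0.421 in controls (SD, n = 4) and 3.01 ± 0.110 in ZQD (SD, n = 3), with overlap.

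The 3 subunits of eIF2, which delivers the initiator tRNA, did not separate the groups. Eif2s2, which encodes the beta subunit and was the most abundant, was at 65.3, 79.4, 65.2 and 70.1 FPKM in the controls and 68.0, 77.9 and 72.2 in ZQD. Summed over the 3 genes, eIF2 was at 160.4 ± 15.8 FPKM in controls (SD, n = 4) and 161.1 ± 6.01 in ZQD (SD, n = 3). The log2 fold changes of Eif2s1, Eif2s2 and Eif2s3x were -0.014, 0.057 and -0.043, signs that were all positive on median-of-ratios, TMM and mitochondria-free scaling and all negative on the TPM scale. Eif2a and Eif2d, which encode alternative initiator tRNA carriers, also overlapped. Eif2a was at 20.9, 22.0, 22.6 and 22.0 FPKM in the controls and 25.2, 22.8 and 19.98 in ZQD.

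eIF2B is the exchange factor that returns eIF2 to its GTP form and the enzyme held back by phosphorylated eIF2. Its alpha subunit gene Eif2b1 (ENSMUSG00000029388) was at 9.03, 10.5, 10.2 and 10.8 FPKM in the controls and 11.7, 10.9 and 11.2 in ZQD. The groups did not overlap, but the nearest libraries of the 2 groups were 10.8 and 10.9. The log2 fold change was 0.15 with a 95% interval from -0.052 to 0.35 (limma adjusted p = 0.443). It was 0.097 without control 1 and 0.052 on the TPM scale. Eif2b2, the most abundant of the 5, was at 38.5, 30.9, 36.0 and 41.7 in controls and 33.4, 29.5 and 32.6 in ZQD, with overlap. The summed level of the complex was 95.9% of the control mean.

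The eIF3 complex has the most genes here, 14, and 3 had a fold change above 0 and 11 below in FPKM, 7 and 7 on median-of-ratios and TMM scaling, 8 and 6 without mitochondrially encoded genes and 1 and 13 on the TPM scale. Eif3f alone of the 14 separated the groups in FPKM. It encodes a subunit with an MPN domain, in the part of eIF3 that also holds eIF3h and eIF3m. Eif3f (ENSMUSG00000031029) was at 34.9, 32.3, 28.0 and 42.7 FPKM in the controls and 21.5, 25.2 and 25.5 in ZQD. Every ZQD library was below the lowest control, with control 4 highest and ZQD 1 lowest. The log2 fold change was -0.50 (SE 0.14, 95% interval -0.82 to -0.18, limma adjusted p = 0.193), and -0.59 to -0.39 with 1 library left out. Set against Eif3h, Eif3f was at a ratio of 0.112 ± 0.0126 in controls (SD, n = 4) and 0.0816 ± 0.00972 in ZQD (SD, n = 3), without overlap. Set against Eif3m the ratio was 1.01 ± 0.140 and 0.774 ± 0.152, with overlap. Because Eif3f was apart by itself, these ratios are no separate result. The other carriers of the pyrimidine run shown above had log2 fold changes of -0.043 (Eif2s3x), -0.0063 (Eif2b5) and -0.026 (Eif3l), and Eif2b2, whose run begins after the start, -0.20.

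**Figure D2:**
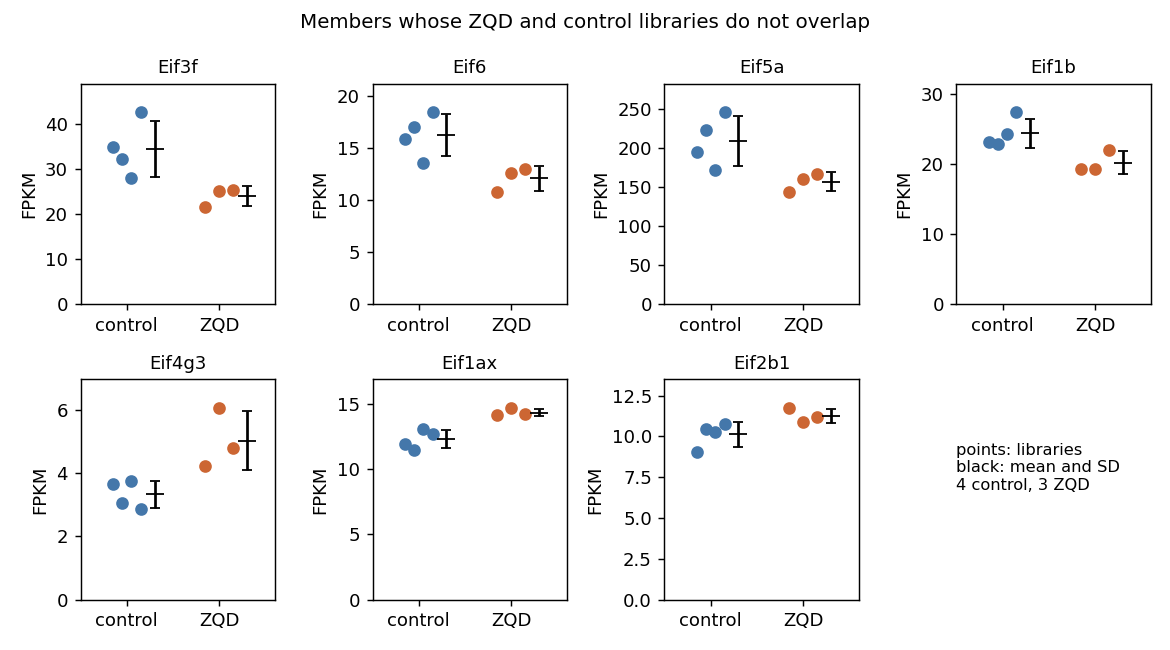
FPKM in each library of the 7 initiation factors whose groups do not overlap; points are libraries, and the black mark is the mean with its SD over 4 control or 3 ZQD libraries. Eif3f, Eif6, Eif5a and Eif1b sit lower in ZQD and Eif4g3, Eif1ax and Eif2b1 higher.

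Levels per length differed widely among eIF3 subunits although the complex holds them side by side. This order depends on the gene lengths used, which ran from 1612 bases for Eif3h to 8731 for Eif3a. In rebuilt reads, Eif3h had 15436 to 23221 in the controls and Eif3e, at 6719 bases, had 16531 to 24445. The order in FPKM is therefore not the order in reads. Eif3h was the highest, at 289, 286, 299 and 357 FPKM in the controls and 306, 287 and 293 in ZQD. It was followed by Eif3a, which encodes the largest scaffold subunit, with a mean of 129.9 over 7 libraries, and the 3 ranges of Eif3h, Eif3a and the next gene did not overlap. Eif3c, Eif3b, Eif3e and Eif3l followed with means from 95.4 to 63.5, and neighbours among these overlapped. Eif3g had a mean of 52.6, apart from the genes on either side. Eif3m, Eif3k, Eif3f and Eif3i were at 33.0 to 24.1, and Eif3j1 and Eif3d at 18.9 and 15.4, with overlap between neighbours inside each of these sets and none between the sets. Eif3j2, a near copy of Eif3j1, was last at 1.09.

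**Figure D3:**
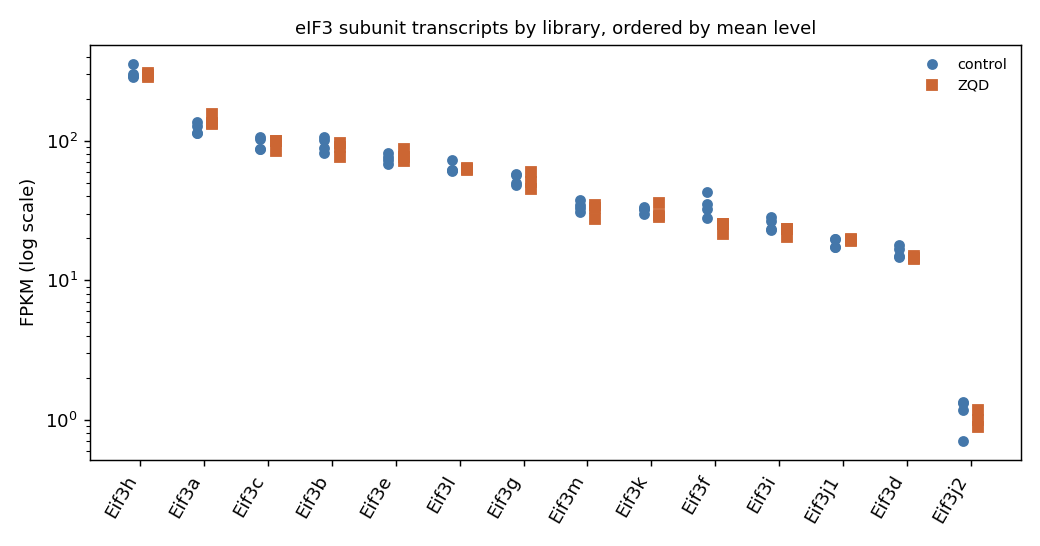
FPKM of the 14 eIF3 subunit genes in each library on a log axis, ordered by mean over 7 libraries; circles are 4 controls and squares 3 ZQD libraries. Eif3h is highest at 286 to 357 FPKM and Eif3j2 lowest at 0.707 to 1.35, and Eif3f is the gene whose groups do not overlap.

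The helicase eIF4A and its helpers eIF4B and eIF4H unwind the leader of the message. The 5 genes grouped here by symbol were Eif4a1, Eif4a2, Eif4a3, Eif4b and Eif4h, and the part of each in this step was not checked. All 5 had a fold change below 0 in FPKM and on the TPM scale, from -0.013 (Eif4b) to -0.23 (Eif4h) in FPKM. Eif4b was above 0 on median-of-ratios, TMM and mitochondria-free scaling. None of the 5 separated the groups in FPKM. Eif4a1, the main helicase gene, was at 187, 215, 194 and 233 FPKM in the controls and 196, 181 and 178 in ZQD (log2 fold change -0.16). Eif4a2 was at 53.4, 60.1, 59.6 and 58.4 in controls and 58.6, 49.2 and 50.1 in ZQD. The ratio of Eif4a1 to Eif4a2 ran from 3.26 to 3.99 over the 7 libraries, with means of 3.58 in controls and 3.52 in ZQD.

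The cap-binding protein gene Eif4e was at 35.6, 34.3, 34.4 and 36.5 FPKM in the controls and 33.8, 34.7 and 29.7 in ZQD (log2 fold change -0.11). The groups overlapped, as they did for its relatives Eif4e2 and Eif4e3. Eif4ebp1, which encodes the main mTORC1-controlled repressor of eIF4E, was at 43.4, 49.1, 46.1 and 60.3 in controls and 34.5, 46.2 and 39.3 in ZQD. ZQD 2 lay inside the control range, and the log2 fold change was -0.31 with a 95% interval from -0.62 to 0.0061. Eif4ebp2 was at 26.3 to 31.2 in controls and 25.5 to 30.7 in ZQD. The ratio of Eif4ebp1 to Eif4e was 1.41 ± 0.184 in controls (SD, n = 4) and 1.22 ± 0.179 in ZQD (SD, n = 3), with overlap.

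The eIF4G scaffolds bridge the cap complex and eIF3, and their genes differed in direction on every scaling run, with 1 above and 2 below 0. Eif4g3 (ENSMUSG00000028760), the minor scaffold, was at 3.65, 3.04, 3.74 and 2.86 FPKM in the controls and 4.23, 6.05 and 4.79 in ZQD. Every ZQD library lay above every control, and ZQD 2 was the highest. The log2 fold change was 0.52 (SE 0.14, 95% interval 0.20 to 0.85, limma adjusted p = 0.186), and 0.39 without ZQD 2. DESeq2 on rebuilt reads gave 0.64 with an adjusted p of 0.0068, and edgeR an adjusted p of 0.139. Eif4g1 was at 108, 110, 99.6 and 114 in controls and 86.9, 92.3 and 103 in ZQD, with overlap (log2 fold change -0.20). Eif4g2, which encodes a scaffold that does not bind eIF4E, was at 103, 106, 102 and 120 in controls and 92.0, 101 and 102 in ZQD. The ratio of Eif4g1 to Eif4g3 was 29.6, 36.3, 26.6 and 39.7 in controls and 20.6, 15.3 and 21.6 in ZQD. Every ZQD library had a lower ratio than every control, but Eif4g3 was apart by itself, so this is no separate result.

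Subunit joining and the steps after it use eIF5, eIF5B and eIF5A, the last a hypusine-bearing factor that also serves elongation. Eif5a (ENSMUSG00000078812) was at 195, 223, 171 and 246 FPKM in the controls and 143, 160 and 166 in ZQD. The groups did not overlap, although control 3 and ZQD 3 were close. The log2 fold change was -0.40 (SE 0.13, limma adjusted p = 0.229), and -0.49 to -0.32 with 1 library left out. Its minor paralogue Eif5a2 was at 2.10 to 2.75 in controls and 1.96 to 2.46 in ZQD, with overlap. The ratio of Eif5a to Eif5a2 was 86.2 ± 7.26 in controls (SD, n = 4) and 69.7 ± 2.98 in ZQD (SD, n = 3), without overlap. This ratio is no separate result, because Eif5a was apart by itself. Eif5 and Eif5b had fold changes of 0.031 and 0.25, with overlap.

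Eif6 (ENSMUSG00000027613) encodes the factor that keeps the large ribosomal subunit from joining too early and takes part in its making. It was at 15.9, 16.99, 13.6 and 18.4 FPKM in the controls and 10.7, 12.5 and 12.98 in ZQD. All ZQD libraries lay below all controls. The log2 fold change was -0.41 (SE 0.12, limma adjusted p = 0.196), and -0.49 to -0.33 with 1 library left out. Among the summed levels of the factor complexes, only that of eIF6, a complex of 1 gene, did not overlap between groups.

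The carriers of CACGTG in the promoter window were Eif1b, Eif3a, Eif3f, Eif3k, Eif4a1, Eif4e, Eif4g1, Eif4h, Eif5a and Eif5a2. Their log2 fold changes ran from -0.50 for Eif3f to 0.20 for Eif3a, with 9 of the 10 below 0 in FPKM and on the TPM scale. In FPKM, 32 of all 48 tested members and 8636 of 14838 genes were below 0, and on the TPM scale 42 of the 48. On median-of-ratios, TMM and mitochondria-free scaling 8 carriers were below 0, with Eif3k and Eif3a above, where 22 or 23 of the 48 members were below. The 48 members include the carriers themselves and members without a promoter window, Eif6 among them, so they are no separate reference. Directions of carriers among all genes were not worked out. A link between this site and the fold changes was not tested.

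Some factors share sequence with processed copies elsewhere in the genome, and the sources used here do not say how reads that fit several places were counted. Words of 50 bases were compared between GENCODE M21 transcripts of each member and those of all other genes. None was shared for Eif3f, Eif1b, Eif1ax, Eif4g3 and Eif2b1, 2.15% for Eif6 and 3.77% for Eif5a. Over all 50 members, 25 shared under 1% and 12 over 10%. Eif3j2 shared 91.8% of its words, 90.8% with Eif3j1, so its reads cannot be told from those of Eif3j1 over most of its length. Eif2s3x shared 34.6% and Eif4a1 28.4%.

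The processed pseudogene Eif4a-ps4, which was left out of the members, carried 95.7% of its words in common with Eif4a1. It was listed at 114, 130, 122 and 140 FPKM in the controls and 100.2, 106 and 118 in ZQD, above most of the members. Of reads listed for either gene, 14.5% to 14.98% stood under the pseudogene in controls and 12.5% to 15.7% in ZQD. Added together, the pair had 949, 1090, 990.3 and 1182 CPM (rebuilt reads scaled to the library's total) in controls and 973, 911 and 913 in ZQD, which overlapped as Eif4a1 alone did. Smaller amounts were listed for Gm9892, a copy of Eif2s2 (19.5 to 29.0 FPKM), and Gm2999, a copy of Eif4a2 (12.3 to 16.7).

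**Figure D4:**
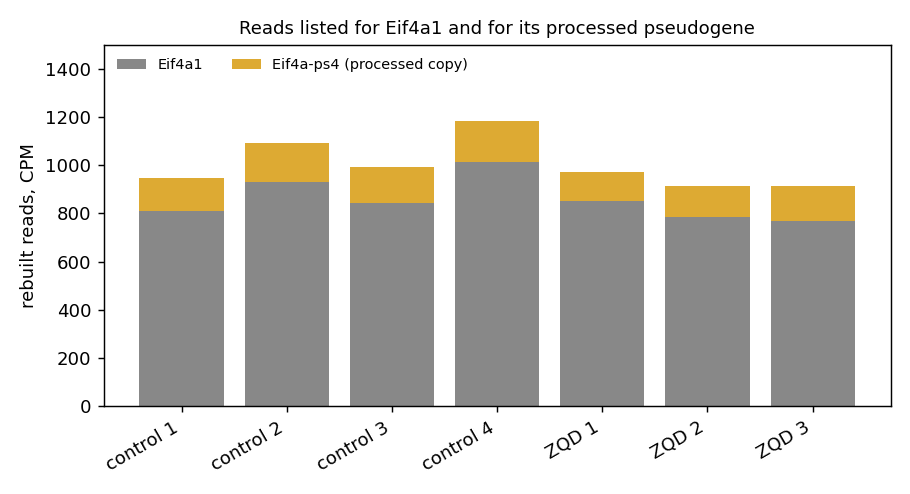
Rebuilt reads, in CPM, listed for Eif4a1 (grey) and its processed pseudogene Eif4a-ps4 (yellow), stacked, in each of the 4 control and 3 ZQD libraries. The pseudogene takes 12.5% to 15.7% of the pair's reads in the 7 libraries.

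Around the factors, 46 genes that regulate or follow initiation were listed, and all were tested. None passed the adjusted threshold in limma, with 17 fold changes above 0 and 29 below in FPKM, 22 and 24 on median-of-ratios, TMM and mitochondria-free scaling, and 10 and 36 on the TPM scale. At an unadjusted p under 0.05, 1 was lower and 2 higher, where 10.3% and 5.21% of all genes were. Groups did not overlap for 5 downward and 1 upward, against 9.84% and 5.35% of all genes. Leaving out 1 library gave 0 to 4 lower, with none lower without ZQD 1, and 0 to 3 higher, with none higher without ZQD 3. The lower gene was Ppp1r15a (GADD34), the stress-induced subunit that directs a phosphatase to eIF2. It was at 15.3, 15.7, 16.0 and 21.4 FPKM in the controls and 9.07, 14.2 and 13.1 in ZQD (log2 fold change -0.49, limma adjusted p = 0.251). All ZQD libraries lay below all controls, and without ZQD 1, the lowest, the log2 fold change was -0.30. Ddx3x, an X-linked RNA helicase that helps scanning on structured leaders, was at 84.9, 87.5, 91.7 and 83.6 in controls and 97.1, 102 and 114 in ZQD. Every ZQD library was above every control (log2 fold change 0.26, limma adjusted p = 0.224, DESeq2 adjusted p = 0.036). Rps6kb1, the S6 kinase gene downstream of mTORC1, was at 12.7, 13.9, 12.9 and 12.2 in controls and 15.8, 13.7 and 15.7 in ZQD, with overlap.

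By list, the 15 cofactors of cap binding and scanning had 5 fold changes above 0 and 10 below in FPKM, and 9 and 6 on median-of-ratios, TMM and mitochondria-free scaling, and the most abundant, the poly(A)-binding protein gene Pabpc1, overlapped at 536 to 635 and 449 to 641 FPKM. Among 7 genes of eIF2 phosphorylation, 2 were above and 5 below 0 in FPKM, and 3 and 4 on those scalings. The most abundant of these was Eif2ak2 (PKR), the kinase that senses double-stranded RNA, at 32.4 to 41.6 in controls and 29.4 to 35.9 in ZQD. The 13 mTORC1 and MNK genes had 6 above and 7 below, and 4 and 9 on the TPM scale, led in level by the mTORC1 inhibitor gene Ddit4 (25.8 to 47.1 and 20.4 to 30.8). Of 9 elongation and release factors 2 were above and 7 below, with 0 and 9 on the TPM scale, and the most abundant, Eef1a1, was at 3344 to 4212 in controls and 2894 to 3389 in ZQD. Both mitochondrial initiation factors had fold changes above 0 on each scaling, with Mtif2 at 13.2 to 16.9 and 14.4 to 17.7.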

How the data were processed

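The authors deposited FPKM per gene for all 7 libraries and raw read counts per gene for 2 of the controls. HISAT2, featureCounts, Subread and DESeq2 are named, with no versions, per the submitters' processing notes. The sources used here do not give the genome build, the annotation or the handling of reads that fit several places. Gene symbols matched 31571 (98.0%) of 32212 identifiers. Gene lengths for 27421 genes came from the 2 count files, and reads rebuilt with them were whole within 0.05 in 100% of values, with 14832 genes in the read-based tests. DESeq2 gave no adjusted p for 2307 genes.

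The main test was limma 3.58.1 (trend, two-sided, Benjamini-Hochberg adjusted p under 0.05) in R 4.3.3 on log2(FPKM + 0.5) over 14838 genes with at least 0.5 FPKM in at least 3 libraries, tested first on simulated data. edgeR 4.0.16, DESeq2 1.42.0, other pseudocounts, filters, scalings, weights, a replicate block and each library left out in turn were alternatives. Members and lists were chosen with earlier results of these data known. The text gives per-library values for members with an unadjusted p under 0.05 or groups that do not overlap, the most abundant of each complex and close paralogues. It also gives them for Eif4g1 and Eif4a-ps4, which were chosen after values were seen. Of partners it names those with an unadjusted p under 0.05 and the most abundant of each list. Protein sequences were not used here. Figures used matplotlib 3.10.9 in Python 3.11.15.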

Additional observations from a re-analysis of the deposited data

Results flagged for a closer look

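Among the 48 tested members, 1 had a control library far from the others. Eif3l, an eIF3 subunit gene, was at 72.9 FPKM in control 4, while the other controls were at 60.4, 61.4 and 61.5. The gap to the nearest control was 0.911 of the range, above the critical value of 0.829 for 4 samples. Chance gives such a gap in about 1 in 20 groups, and 48 groups of controls were looked at.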

How the results depend on the processing

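Of 480 values of named genes recomputed under 20 alternatives, 471 kept their direction and side of the adjusted threshold, 2 passed it and 7 changed sign, none of them past the threshold. Part of this was fixed in advance. The filters and the trend setting do not alter a fold change, and the replicate block gave the fold changes found without control 4. Limma called 0 or 1 of all genes in each setting, so the side of the threshold could hardly change there. DESeq2 called Eif4g3 (0.64) and Ddx3x (0.31), so 1 member passed the adjusted threshold there and 0 under the other alternatives. Eif2s2 was -0.046 and Eif2a -0.058 on the TPM scale, and with 1 library left out Eif2a ran from -0.034 (without ZQD 1) to 0.13. Eif3h was 0.0024 without mitochondrially encoded genes and 0.021 under the replicate block, and ran from -0.085 to 0.021 (without control 4) with 1 library left out. Pabpc1 ran from -0.19 to 0.069 (without ZQD 1). On the TPM scale 14 members were lower and 1 higher at an unadjusted p under 0.05, their median log2 fold change was -0.14, and 12 partner genes were lower and 0 higher. Without mitochondrially encoded genes 4 members and 4 partner genes were higher. Median-of-ratios and TMM scaling each gave 4 partner genes higher. Lower partner genes numbered 3 with the stricter filter, 3 with no filter, 2 with no trend and 2 with library weights, and 1 was higher with no trend. With 1 library left out, 1 to 3 members were higher, 0 to 4 partner genes lower and 0 to 3 higher. Over all genes, lower and higher counts at an unadjusted p under 0.05 were 1533 and 773 in FPKM, 2861 and 377 on the TPM scale, 1082 and 1097 with median of ratios, 1093 and 1093 with TMM and 1045 and 1153 without mitochondrially encoded genes. The members' median was -0.0098 with library weights (all genes -0.045). The cause of these changes was not tested.

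Replicate numbers were not taken to pair the samples in the main test. Deviations of same-numbered libraries from their group means correlated at 0.252, 0.0998 and -0.150, and ZQD 1 correlated with control 3 at 0.255. These values cannot decide on a pairing, because deviations from the mean of so few libraries are tied to each other. With the replicate block, 1 member and 1 partner gene were higher and 0 members passed the adjusted threshold. Depth limits Eif3j2, Eif4ebp3 and Eif2c5, whose reads were fewest.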
